A study of Mus musculus with 4 samples.

Results

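Genes of the mitochondrial ribosomal proteins were compared between mouse small intestinal organoids and the crypts they were grown from. The genes were taken by name, as those whose gene name on the array begins with Mrpl (named for the large ribosomal subunit) or Mrps (named for the small subunit). This gave 75 genes, 46 of them Mrpl and 29 Mrps, among the 15536 genes tested, and no measured value was used to choose them. They were represented on the array by 124 probes, each a 60-base oligonucleotide.

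Crypts are the epithelial pits in the lining of the small intestine that hold the stem cells and Paneth cells. The organoid group was RNA of crypt cultures kept for 1 week, for which 500 crypts were plated in 50 µl of Matrigel, a basement membrane gel, in a medium with EGF at 10 to 50 ng/ml, R-spondin at 500 ng/ml and Noggin at 100 ng/ml. The crypt group was RNA of the freshly isolated crypts of the same animals, freed from the tissue with 2 mM EDTA and passed through a 70 µm strainer. There were 2 mice, and the sources used here give neither their strain, genotype and age nor how many crypts were pooled per RNA. Organoid and crypt RNA of a mouse were labelled with opposite dyes and hybridised together, once in each dye orientation, so that the 4 arrays give n = 2 mice. The cultures were grown from whole crypts and not from sorted cells, so each value is an average over all cells present.

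The mitochondrial ribosome translates the few messenger RNAs that are transcribed from mitochondrial DNA, all of which encode core subunits of the respiratory chain and ATP synthase. Its ribosomal RNAs come from the mitochondrial genome, whereas all of its proteins are encoded in the nucleus, made in the cytosol and imported. Many of these proteins descend from bacterial ribosomal proteins, and others were added during the evolution of mitochondria. In the intestine, mitochondrial translation is needed for oxidative phosphorylation, which provides much of the energy of stem and absorptive cells.

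None of the 75 genes passed the test between organoids and crypts at a Benjamini-Hochberg adjusted p of 0.05 (limma on the 2 mouse ratios), against 10.9% of all genes tested. The smallest adjusted p among them was 0.0563, for Mrpl55. With 2 mice only large ratios passed in this fit. The smallest absolute log2 ratio of any gene that passed was 0.59, a size reached by 14.4% of all genes tested and by 1 of the 75. The lack of calls therefore does not show that the other 74 were unchanged. Ratios were small: 1 of the 75 genes (Mrpl27) lay beyond 1.5-fold in either direction, against 14.5% of all genes tested. The 95% interval of the ratio lay within 2-fold on both sides for 74 of the 75, against 85.1% of all genes tested. Their median log2 ratio of organoid over crypt was -0.12, with medians of -0.13 in mouse 1 and -0.08 in mouse 2, against 0.02 for all genes tested. In bulk RNA, a smaller number of cells of a type and less RNA per cell cannot be told apart. All 75 genes were well above background in all 8 channels, as were 14372 of the 15536 genes, so none of these values rests on a bound.

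The tilt towards lower values was spread over many genes and was small for each. The log2 ratio was below 0 for 50 of the 75 genes, against 45.7% of all genes tested. In 41 genes the ratio was below 0 in both mice and in 15 it was above 0 in both, so that 74.7% of the 75 had a common direction in the mice, near the 68.8% of all genes tested. On all 4 arrays the direction was the same for 35 of the 75 genes (46.7%), of which 27 were lower and 8 higher in organoids, beside 47.1% of all genes tested with a common direction. Without adjustment, p was under 0.05 for 10 of the 75, all with ratios below 0, beside 27.6% of all genes tested. Among all genes tested, 5.48% passed the adjusted threshold with lower values and 5.41% with higher values in organoids, and 0 of the 75 did so in either direction. The sign of the tilt depended on the scaling of the arrays. When each array was centred on its median in place of loess normalization, the median log2 ratio of all genes moved to 0.17 and that of the 75 genes to 0.18, and 16 of the 75 remained below 0. Relative to all genes, the Mrpl median was then 0.0016 and the Mrps median 0.05.

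**Figure D1:**
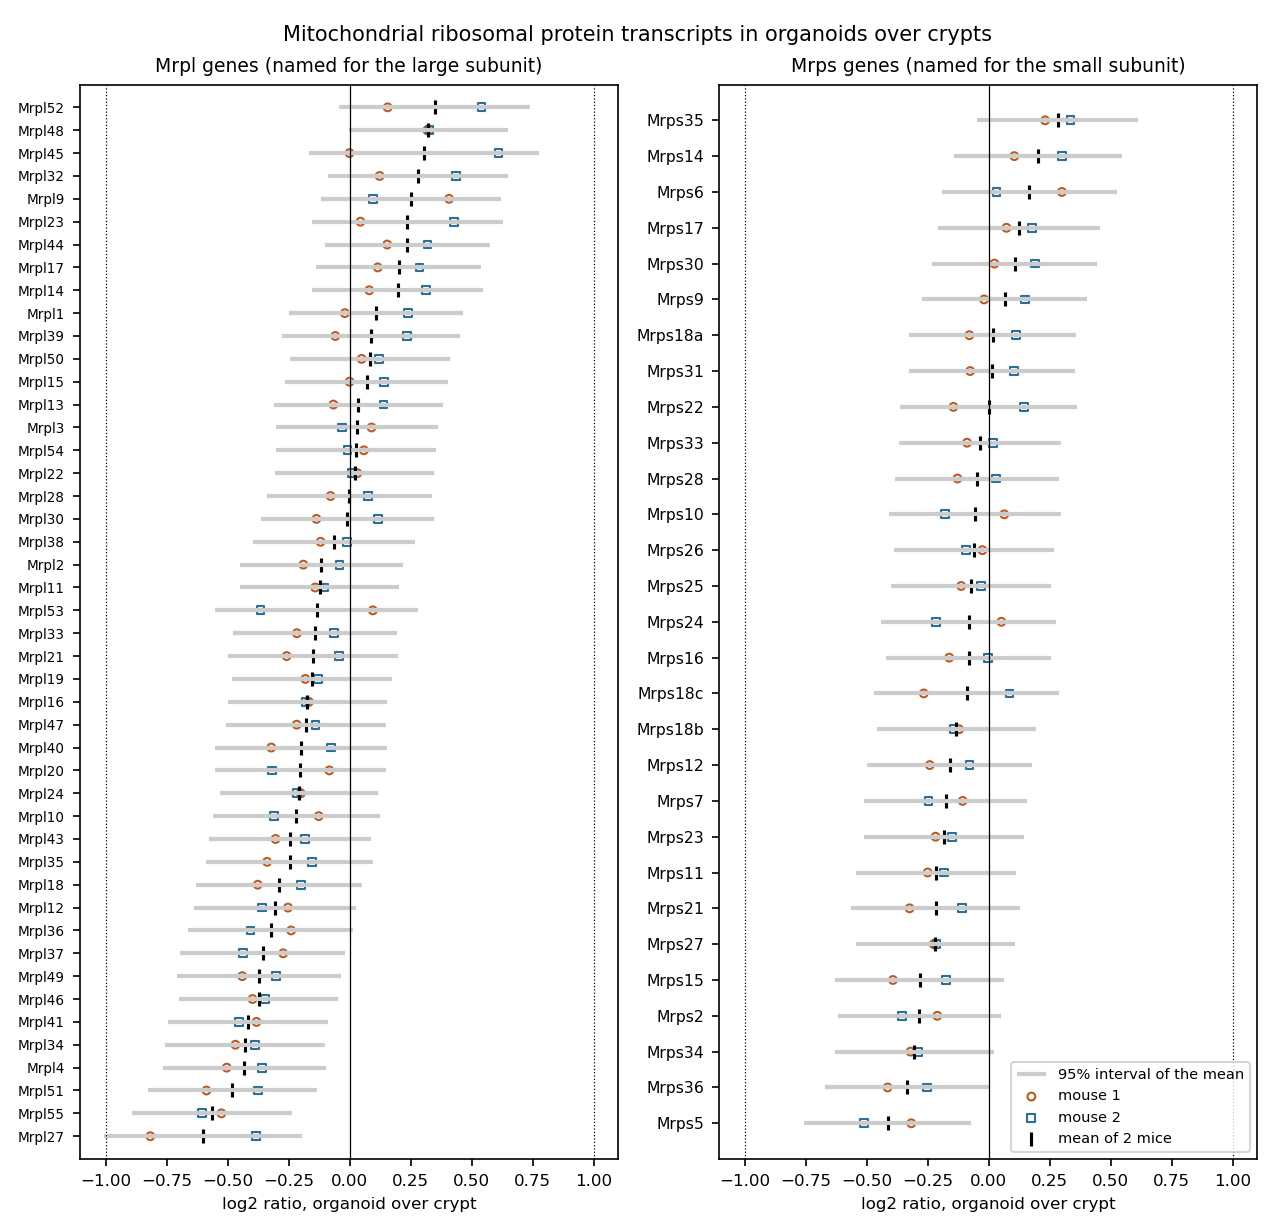
Log2 ratio of organoid over crypt (x axis) for the 46 Mrpl genes and the 29 Mrps genes (y axis), with circles for mouse 1, squares for mouse 2, a tick for the mean and a grey bar for the 95% interval from limma. Dotted lines mark a 2-fold difference, and the bar of Mrpl27 alone reaches past them.

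The probes behind 3 of these genes show what was hybridised. Mrpl27 is shown as the gene with the lowest ratio, Mrpl48 as the gene that passed the test with higher values in organoids once a dye term was in the fit, and Mrpl15 because its probes differed most. The probe of Mrpl27 lies at chr11:94520989-94521048 on the plus strand, that of Mrpl48 at chr7:107699060-107699119 on the minus strand and that of Mrpl15 at chr1:4767667-4767726 on the minus strand, all in mm9 as given in the scanner files. Their place relative to exons was not analysed here.
Mrpl27: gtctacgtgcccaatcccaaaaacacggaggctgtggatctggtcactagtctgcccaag
Mrpl48: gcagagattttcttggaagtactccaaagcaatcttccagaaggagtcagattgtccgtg
Mrpl15: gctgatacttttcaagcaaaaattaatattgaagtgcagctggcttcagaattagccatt

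The large subunit carries the peptidyl transferase centre, where peptide bonds form. The 5 lowest ratios were all of Mrpl genes. Mrpl27, whose bacterial relative L27 reaches to the peptidyl transferase centre, had log2 intensities of 12.56 and 12.90 in organoids of mouse 1 and mouse 2, against 13.37 and 13.28 in their crypts. Both organoid values were below both crypt values, and the mean log2 ratio was -0.60 ± 0.31 (SD, n = 2 mice; adjusted p = 0.0802, limma). The size differed between the animals, at -0.82 in mouse 1 and -0.38 in mouse 2, and the 95% interval ran from -1.01 to -0.19. Mrpl55, the relative of bacterial L31, had 12.37 and 12.54 in organoids, against 12.90 and 13.15 in crypts. Its ratio of -0.57 ± 0.06 (SD, n = 2 mice; adjusted p = 0.0563, limma) was almost as low as that of Mrpl27 and far closer between the animals. Mrpl51, a protein with no bacterial counterpart, had 13.63 and 13.63 in organoids, against 14.21 and 14.01 in crypts, a ratio of -0.48 ± 0.15 (SD, n = 2 mice). Mrpl4, the relative of bacterial L4 near the wall of the exit tunnel, had 10.89 and 10.95 in organoids, against 11.40 and 11.31 in crypts, a ratio of -0.43 ± 0.10 (SD, n = 2 mice). Mrpl34, the relative of bacterial L34, had 12.51 and 12.54 in organoids, against 12.98 and 12.93 in crypts, a ratio of -0.43 ± 0.06 (SD, n = 2 mice). In each of these 5 genes, which were chosen for their low ratios, the organoid and crypt values did not overlap and all 4 arrays had ratios below 0. Organoid and crypt values did not overlap in 50 of the 75 genes (38 lower and 12 higher in organoids), beside 57.3% of all genes tested. The adjusted p of Mrpl51, Mrpl4 and Mrpl34 was 0.0922, 0.108 and 0.105 (limma).

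Other Mrpl genes with an unadjusted p under 0.05 were Mrpl41, Mrpl46, Mrpl49 and Mrpl37, with ratios of -0.42, -0.37, -0.37 and -0.36. These 4 genes were named after their values were seen, to complete the count of 10 together with Mrps5. The other tested probes of Mrpl49, nearly as bright as the one used, had smaller ratios of -0.22 and -0.14. Both tissues shared each array, so a mouse is its own pair. With the mouse as a random block and the arrays counted singly (replicate block), 6 of the 75 genes passed the threshold, all lower in organoids: Mrpl27, Mrpl34, Mrpl4, Mrpl41, Mrpl51 and Mrpl55. With a dye term in a fit to the 4 arrays, 12 passed, of which 11 were lower and Mrpl48 was higher. The dye-term fit uses the dye-swapped arrays of the same RNAs as if they were further samples. The replicate block also enters them singly, but with a correlation of 0.17 within a mouse, shared by all genes. With the block 3079 and with the dye term 3708 of the 15536 genes passed, against 1691 with 1 value per mouse.

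**Figure D2:**
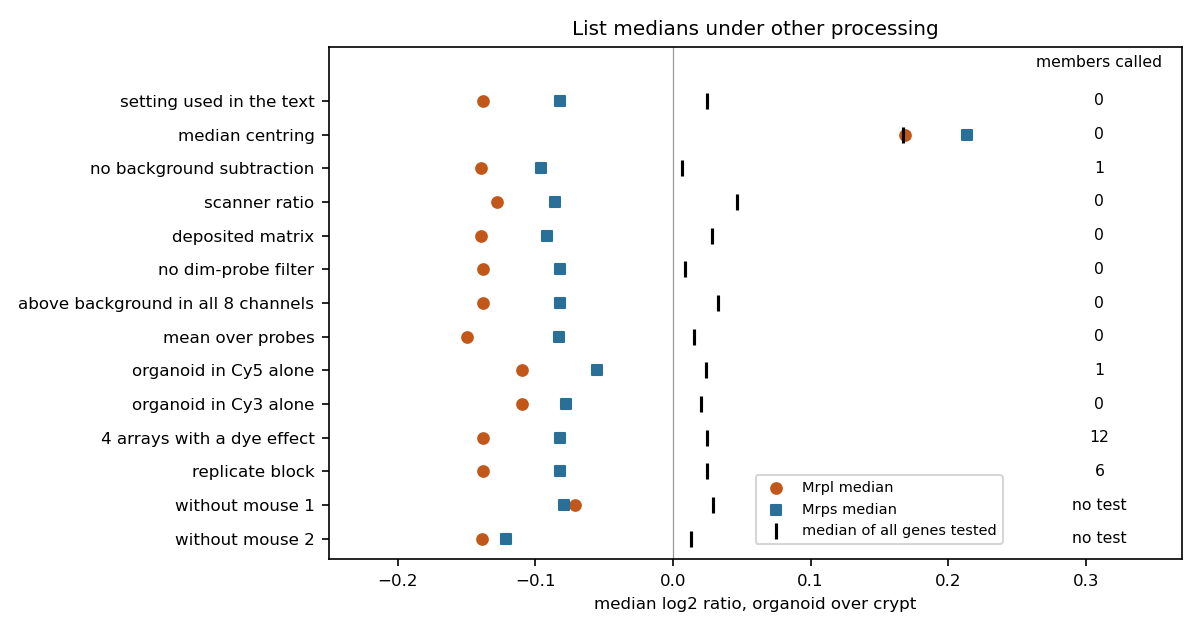
Median log2 ratio of organoid over crypt (x axis) of the Mrpl genes (orange circles), the Mrps genes (blue squares) and all genes tested (black ticks) under each way of processing the arrays (y axis), with the number of the 75 genes past the threshold at the right. Median centring alone places the Mrpl and Mrps medians above 0, at 0.17 and 0.21, beside 0.17 for all genes.

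The highest ratios were also mostly of Mrpl genes. Mrpl52, a large subunit protein found in mitochondria and not in bacteria, had log2 intensities of 13.68 and 14.003 in organoids, against 13.53 and 13.46 in crypts. Both organoid values were above both crypt values, with a ratio of 0.35 ± 0.27 (SD, n = 2 mice; adjusted p = 0.224, limma) and 3 of 4 arrays above 0. Mrpl48 had 11.80 and 11.98 in organoids, against 11.48 and 11.65 in crypts, a ratio of 0.32 ± 0.01 (SD, n = 2 mice; adjusted p = 0.185, limma). It had the closest agreement between animals of the 5 highest, and all 4 of its arrays were above 0. Mrpl46 and Mrpl48, both of the central protuberance of the large subunit, thus had ratios of opposite sign. Mrpl45, which lies at the exit tunnel and tethers the ribosome to the inner membrane, had 12.90 and 13.44 in organoids, against 12.90 and 12.83 in crypts. With the probe used, its ratio was -0.00081 in mouse 1 and 0.61 in mouse 2. The mean of 0.30 ± 0.43 (SD, n = 2 mice) for that probe thus came from 1 animal. The other tested probe of Mrpl45, a dimmer one, had 0.24 in mouse 1 and 0.23 in mouse 2. Mrpl32, whose maturation by a protease of the inner membrane is a step of ribosome assembly, had a ratio of 0.28 ± 0.22 (SD, n = 2 mice), with 0.12 in mouse 1 and 0.44 in mouse 2.

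Some further large subunit proteins were followed for their roles. Mrpl12 forms the stalk that recruits translation factors and has also been found with the mitochondrial RNA polymerase. It had log2 intensities of 14.33 and 14.33 in organoids, against 14.58 and 14.69 in crypts, with a ratio of -0.31 ± 0.08 (SD, n = 2 mice; adjusted p = 0.209, limma). All 4 arrays were below 0 for Mrpl12, but with median centring its ratio was 0.08. Mrpl44, a relative of ribonuclease III at the exit tunnel side of the subunit, had 12.72 and 12.92 in organoids, against 12.57 and 12.60 in crypts, a ratio of 0.24 ± 0.12 (SD, n = 2 mice; adjusted p = 0.329, limma). Its other tested probe had a ratio of 0.37, in the same direction.

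The small subunit binds the messenger RNA and holds the decoding centre. Its genes had a narrower range, from -0.41 for Mrps5 to 0.28 for Mrps35, against -0.60 to 0.35 for the Mrpl genes, with an SD over genes of 0.17 for Mrps and 0.25 for Mrpl. Mrps5, the relative of bacterial S5 at the entry of the messenger RNA, had log2 intensities of 12.62 and 12.54 in organoids, against 12.93 and 13.05 in crypts. Its ratio of -0.41 ± 0.14 (SD, n = 2 mice; adjusted p = 0.123, limma) was below 0 on all 4 arrays, but was -0.54 and -0.86 with organoid RNA in Cy5 and -0.09 and -0.16 with organoid RNA in Cy3. It was the only Mrps gene with an unadjusted p under 0.05, and with the Cy5 arrays alone it passed the adjusted threshold. Mrps35, a small subunit protein with no bacterial counterpart, had 11.73 and 11.93 in organoids, against 11.50 and 11.59 in crypts, a ratio of 0.28 ± 0.07 (SD, n = 2 mice; adjusted p = 0.240, limma). All 4 arrays were above 0 for Mrps35.

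Names and structure do not coincide for 3 Mrps genes. The product of Mrps30 sits in the large subunit, and it had 12.49 and 12.65 in organoids, against 12.47 and 12.46 in crypts, a ratio of 0.11 ± 0.12 (SD, n = 2 mice). The product of Mrps36 belongs to the 2-oxoglutarate dehydrogenase complex of the citric acid cycle. Mrps36 had 11.74 and 11.86 in organoids, against 12.15 and 12.11 in crypts, a ratio of -0.33 ± 0.11 (SD, n = 2 mice; adjusted p = 0.186, limma), below 0 on all 4 arrays. Mrps18a, Mrps18b and Mrps18c are paralogues related to bacterial S18, of which Mrps18a encodes a large subunit protein and the other two encode small subunit proteins. Their ratios were 0.02 ± 0.14, -0.13 ± 0.02 and -0.09 ± 0.25 (SD, n = 2 mice each), and for Mrps18b the organoid values of 9.18 and 9.16 lay just below the crypt values of 9.30 and 9.30. No difference between organoids and crypts was detected for any of the paralogues, and their intervals together spanned -0.47 to 0.36.

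**Figure D3:**
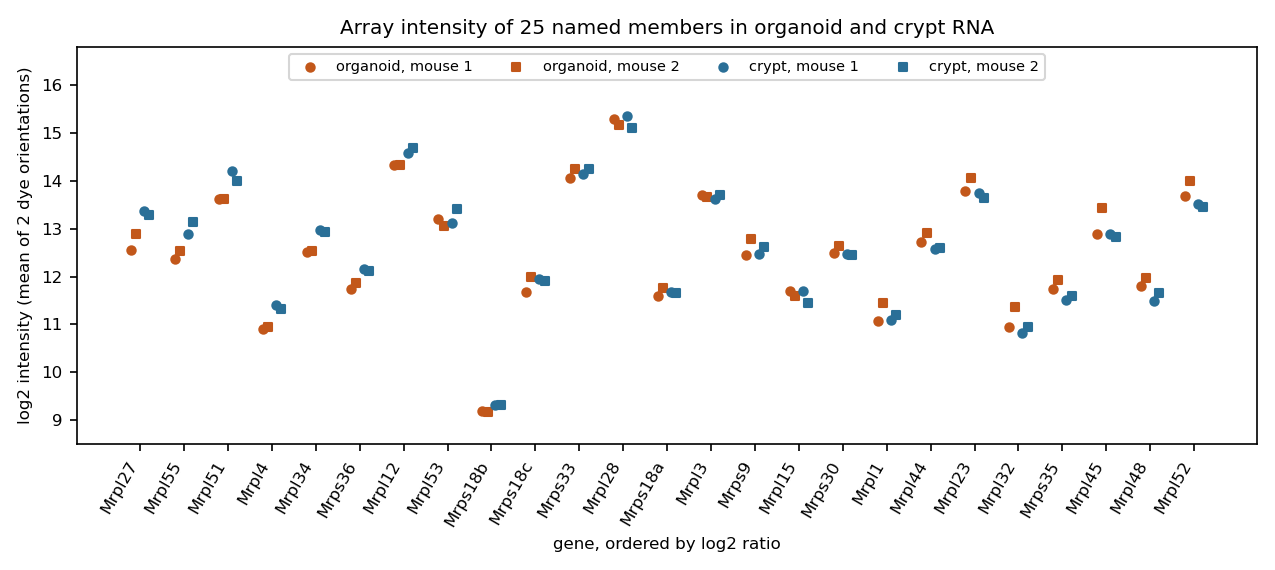
Log2 intensity (y axis, mean of both dye orientations) of the 25 genes chosen by rule (x axis, in order of ratio), with organoid RNA in orange and crypt RNA in blue, circles for mouse 1 and squares for mouse 2. At the left end, as in Mrpl55 with 12.37 and 12.54 in organoids and 12.90 and 13.15 in crypts, the organoid points lie below the crypt points. At the right end they lie above them, except in Mrpl45, where the organoid and crypt points of mouse 1 are level at 12.90.

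Set side by side, the large and small subunits had no common direction of difference in the 2 animals. The median log2 ratio was -0.14 for the 46 Mrpl genes and -0.08 for the 29 Mrps genes, a difference of -0.06. In mouse 1 the Mrpl median was -0.14 and the Mrps median -0.12, and in mouse 2 they were -0.07 and -0.08, so that the difference was -0.02 in mouse 1 and 0.01 in mouse 2. Its sign therefore differed between the animals, and the -0.06, a difference of medians of the mean ratios, is not the mean of the 2 animals' differences and lay outside both (SD between mice 0.018). With 2 mice an exact permutation test cannot give a p below 0.5, so none was run. Assigning the genes by structure (48 large, 26 small, Mrps36 in neither) gave a difference of -0.05, with -0.01 in mouse 1 and 0.03 in mouse 2. Of the Mrpl genes 26 had ratios below 0 in both mice and 10 above 0 in both, and of the Mrps genes 15 and 5. The 46 genes classed as having a direct bacterial counterpart had a median of -0.13, and the 28 classed as having none, Mrps18a and Mrps18b among them, had a median of -0.06. This difference of -0.07 had the same sign in both mice (-0.05 and -0.07) and on all 4 arrays, with an SD between mice of 0.013, and was not tested.

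Across the 75 genes the ratios of mouse 1 and mouse 2 correlated with r = 0.70 (Spearman's rho 0.74), a description over genes that share arrays, dyes and normalization. The median SD between the mice was 0.11, and the median width of the 95% interval on each side of the mean was 0.34. The median absolute ratio of 0.18 lay between these 2 values. The interval included 0 in all but the 10 genes with an unadjusted p under 0.05 (limma). The genes whose mice differed most were Mrpl45, Mrpl53, Mrpl27, Mrpl52 and Mrpl23. Mrpl53 had log2 intensities of 13.21 and 13.06 in organoids, against 13.11 and 13.42 in crypts, with a ratio of 0.09 in mouse 1 and -0.37 in mouse 2. Mrpl23, a neighbour of the exit tunnel, had 13.80 and 14.07 in organoids, against 13.76 and 13.64 in crypts, with 0.04 in mouse 1 and 0.43 in mouse 2. In Mrpl53 the animals had opposite signs, and in the other genes named here except Mrpl45 they shared the sign and differed in size.

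Of the 124 probes, 116 were tested, and 29 genes had more than 1 tested probe. The gene's ratio was that of its brightest probe. Of 41 other probes, 33 had the same sign as the probe used and 8 the opposite sign, with a median gap of 0.07 and a largest gap of 0.53 in absolute log2 ratio. The genes with probes of opposite sign were Mrpl1, Mrpl15, Mrpl28, Mrpl3, Mrps33 and Mrps9. For Mrpl28 and Mrps33 the largest gaps were 0.04 and 0.11. In Mrpl15 the probe printed above had a ratio of 0.07 ± 0.10 (SD, n = 2 mice), with 11.70 and 11.60 in organoids against 11.70 and 11.46 in crypts. The other Mrpl15 probe, which was designed on a complementary DNA clone at chr1:4771675-4771734 in mm9 and matched no accession of the RefSeq gene table, had -0.68 in mouse 1 and -0.24 in mouse 2. Its first 26 bases and its last 26 bases are the same sequence.
Mrpl15, repeated unit of the other probe: cacgatggtactcaaaactggaacta

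In Mrps9, probes of the RefSeq transcript had ratios of 0.06 and 0.13, and a probe on a clone without such a match had -0.05 in mouse 1 and -0.84 in mouse 2. Mrpl1 had a ratio of 0.11 ± 0.18 (SD, n = 2 mice) with the probe used, while its other probes had 0.21 and -0.24. Mrpl3 had 0.03 ± 0.08 (SD, n = 2 mice), and its other probes had 0.02, -0.09 and -0.17. The clone probe of Mrps9 and the probes of Mrpl1 at -0.24 and of Mrpl3 at -0.17 were far dimmer than those used. Their mean log2 intensities were 7.84, 8.07 and 7.64. Mrpl52 had a second tested probe on a clone without a RefSeq match, with 0.94 in mouse 1 and -0.66 in mouse 2.

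**Figure D4:**
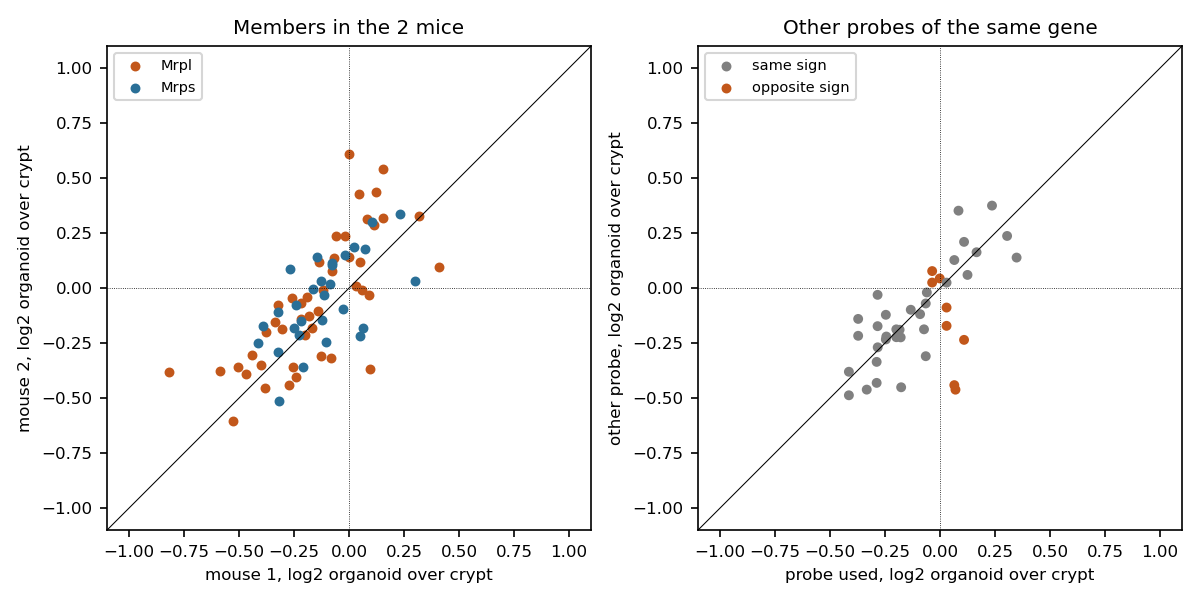
Left, log2 ratio of organoid over crypt in mouse 1 (x axis) and mouse 2 (y axis) for the 75 genes, Mrpl in orange and Mrps in blue, scattered along the line of equality (r = 0.70). Right, the ratio of the probe used (x axis) and of each of 41 other probes of the same gene (y axis), of which the 8 in orange have the opposite sign.

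Promoters of 66 of the 75 genes were found by symbol in the RefSeq promoter table (GRCm38.p6), each a window of 300 bases around the start of the gene. They were searched on both strands for GCGCATGC (core of the NRF1 motif), CCGGAAG (the ETS motif bound by GABPA), AAGATGGCG (YY1) and CACGTG (E-box, bound by MYC). NRF1, GABPA and YY1 are known as regulators of nuclear genes for mitochondrial proteins. The ETS letters were present in 24 of 66 (36.4%), against 18.9% of the 10209 tested genes with a promoter in the table and 9.93% of all 27025 genes in it. The NRF1 letters were present in 8 (12.1%), against 5.62% of tested genes, the YY1 letters in 7 (10.6%), against 3.35%, and the E-box letters in 5 (7.58%), against 11.4%. The median log2 ratio was -0.13 in genes with the ETS letters and -0.12 in those without. It was 0.05 with and -0.14 without the NRF1 letters, -0.22 with and -0.12 without the YY1 letters, and -0.20 with and -0.12 without the E-box letters, over the few genes counted above and with no test. The lowest and the highest gene both held the ETS letters, which is why their promoters are shown, with the matches in capitals on either strand. The promoter of Mrpl27 lies at chr11:94653541-94653840 and that of Mrpl52 at chr14:54426659-54426958, both on the plus strand of GRCm38.p6. The Mrpl27 window held 1 match and the Mrpl52 window held 2. A match is a description of the letters and does not show binding.
Mrpl27: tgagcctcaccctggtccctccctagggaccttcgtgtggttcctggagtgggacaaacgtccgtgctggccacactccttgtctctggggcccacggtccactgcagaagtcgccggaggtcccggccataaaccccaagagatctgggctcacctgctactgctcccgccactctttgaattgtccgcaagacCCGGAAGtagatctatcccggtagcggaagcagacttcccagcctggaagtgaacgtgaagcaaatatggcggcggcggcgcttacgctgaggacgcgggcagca
Mrpl52: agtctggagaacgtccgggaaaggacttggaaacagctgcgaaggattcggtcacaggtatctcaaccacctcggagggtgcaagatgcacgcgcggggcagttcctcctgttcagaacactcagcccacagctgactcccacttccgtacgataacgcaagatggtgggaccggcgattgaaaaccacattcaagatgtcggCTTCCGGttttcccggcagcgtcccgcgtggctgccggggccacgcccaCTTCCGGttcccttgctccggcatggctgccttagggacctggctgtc

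Other proteins of the mitochondrial ribosome carry other names on the array. None of the 7 tested passed the threshold (1 had an unadjusted p under 0.05), beside 10.9% (27.6%) of all genes tested. The median of the 7 was -0.02. Dap3, a GTP-binding protein of the small subunit, had log2 intensities of 14.69 and 14.83 in organoids, against 14.18 and 14.35 in crypts. Its ratio of 0.50 ± 0.02 (SD, n = 2 mice; adjusted p = 0.0748, limma) was larger than that of any Mrpl or Mrps gene above 0, and was above 0 on all 4 arrays. Chchd1 had 0.22 ± 0.38, Ptcd3, which binds messenger RNA at the small subunit, had -0.15 ± 0.12 and Mrpl58, a peptidyl-tRNA hydrolase in the large subunit, had -0.25 ± 0.24 (SD, n = 2 mice each).

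Few genes that build and serve the mitochondrial ribosome passed the test, but the lists are short. Over all genes tested 10.9% passed, and 27.6% had an unadjusted p under 0.05. At those shares a list of this length holds few calls. None of 25 assembly factors passed the test (median -0.05, unadjusted p under 0.05 for 3), with 0.45 ± 0.02 for Ngrn, 0.44 ± 0.25 for Mterf4, -0.34 ± 0.13 for Mtg2 and -0.51 ± 0.31 for Afg3l2 at the ends (SD, n = 2 mice each). None of 13 translation factors passed (median -0.11, unadjusted p under 0.05 for 2). Tufm, the mitochondrial elongation factor Tu, had 14.43 and 14.36 in organoids, against 14.78 and 14.86 in crypts, a ratio of -0.42 ± 0.10 (SD, n = 2 mice; adjusted p = 0.114, limma), and the elongation factor Gfm1 had -0.59 ± 0.35 (SD, n = 2 mice). At the other end were Mrrf, the ribosome recycling factor, at 0.39 ± 0.58 and Guf1 at 0.27 ± 0.35 (SD, n = 2 mice each). Of 21 mitochondrial aminoacyl-tRNA synthetases and related enzymes 1 passed: Lars2, for leucine, fell to 15.83 and 15.53 in organoids, against 16.44 and 16.44 in crypts, a ratio of -0.76 ± 0.21 (SD, n = 2 mice; adjusted p = 0.0350, limma). The intensities of Lars2 stood far above those of the rest of this list. The next highest, Tars2, had 12.54 and 12.60 in organoids, against 12.75 and 12.92 in crypts. Whether the Lars2 probe reads this transcript alone was not tested. The Lars2 call was lost with median centring, with the scanner's own ratio, with the deposited matrix and without the filter on dim probes.

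None of 20 genes for upkeep and transcription of mitochondrial DNA passed (median -0.06, unadjusted p under 0.05 for 3). The shares over all genes tested were 10.9% passing and 27.6% with an unadjusted p under 0.05. Tfam, which packages mitochondrial DNA, had -0.08 ± 0.15, the RNA polymerase Polrmt had -0.25 ± 0.11 and Lrpprc, which stabilises mitochondrial messenger RNA, had -0.37 ± 0.02 (SD, n = 2 mice each). Of 25 import genes Tomm20, a receptor of the outer membrane, alone passed: it rose to 14.12 and 14.34 in organoids, against 13.59 and 13.45 in crypts, a ratio of 0.71 ± 0.26 (SD, n = 2 mice; adjusted p = 0.0460, limma). That call was lost with median centring, the scanner's ratio, the deposited matrix, no dim-probe filter, a mean over probes and the Cy3 arrays alone.

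Regulators of mitochondrial biogenesis moved in both directions, with 1 of 9 higher and 2 lower, beside 5.41% and 5.48% of all genes tested. Myc, a transcription factor that drives ribosome production and growth, rose to 12.52 and 12.57 in organoids, against 11.73 and 11.78 in crypts, a ratio of 0.78 ± 0.0032 (SD, n = 2 mice; adjusted p = 0.0232, limma). Ppargc1a, the coactivator known for raising mitochondrial content, fell to 9.42 and 9.35 in organoids, against 10.89 and 11.37 in crypts, a ratio of -1.74 ± 0.39 (SD, n = 2 mice; adjusted p = 0.00691, limma). Esrra, a nuclear receptor that works with it, fell to 13.09 and 12.93 in organoids, against 13.66 and 13.84 in crypts, a ratio of -0.74 ± 0.23 (SD, n = 2 mice; adjusted p = 0.0390, limma). Each of these differences was larger than the ratio of any of the 75 ribosomal genes. With median centring none of the 3 passed, while the scanner's ratio, the deposited matrix and the Cy3 arrays alone each left 1 call in this list. Of the 6 regulators that did not pass, Ppargc1b had -0.91 ± 0.59 (SD, n = 2 mice), with an adjusted p of 0.0664 (limma). The others were Gabpa at 0.18, Gabpb1 at 0.03, Pprc1 at 0.01, Yy1 at 0.0067 and Nrf1 at -0.10.

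The respiratory chain, whose mitochondrially encoded subunits this ribosome makes, stood lower. Of 79 nuclear gene names for respiratory chain and ATP synthase subunits 21 passed with lower values in organoids and 0 with higher values. The shares over all genes tested were 5.48% and 5.41%. Among the 79, Atp5f1 and Atp5pb are 2 names of 1 gene, with ratios of -0.10 and -0.42, and neither passed. The median of this list was -0.48. The median of the 75 mitochondrial ribosomal protein genes was above it by 0.36, by 0.31 in mouse 1 and 0.39 in mouse 2, and on each of the 4 arrays (0.15 to 0.53). Cox7a1, a subunit isoform of cytochrome oxidase, fell by the most in this list, with a ratio of -1.58 ± 0.39 (SD, n = 2 mice; adjusted p = 0.00907, limma), and Atp5k, of the ATP synthase, had -0.93 ± 0.21 (SD, n = 2 mice; adjusted p = 0.0208, limma). The array names 2 genes of the mitochondrial genome itself, COX2 and CYTB, and these were looked up after their values were seen. The files place the CYTB probe on the mitochondrial chromosome, but the COX2 probe on chromosome 1 of mm9. CYTB, cytochrome b, fell to log2 intensities of 15.22 and 15.62 in organoids, against 16.12 and 16.38 in crypts, a ratio of -0.83 ± 0.10 (SD, n = 2 mice; adjusted p = 0.0218, limma). The probe named COX2, after a catalytic subunit of cytochrome oxidase, had 16.41 and 16.27 in organoids, against 16.53 and 16.58 in crypts. Its ratio was -0.21 ± 0.13 (SD, n = 2 mice; adjusted p = 0.383, limma). Given its place on chromosome 1, whether it reads the mitochondrial transcript is not known and was not tested.

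Cytosolic ribosomal proteins stood on the other side. Of 81 genes 27 passed with higher and 1 with lower values in organoids, beside 5.41% and 5.48% of all genes tested. The median of the 81 was 0.53, against which the mitochondrial ribosomal protein genes were lower by a difference of -0.65 (-0.59 in mouse 1 and -0.66 in mouse 2). This difference moved with the dye: it was -0.996 and -0.90 on the arrays with organoid RNA in Cy5, and -0.24 and -0.36 on those with organoid RNA in Cy3. The part of the dye in it was not tested beyond these values. The mitochondrial genes themselves had medians of -0.17 and -0.04 with organoid RNA in Cy5, and -0.09 and -0.08 with organoid RNA in Cy3. The differences between lists were not tested, for the reason given for the subunits, and the calls in both comparison lists were 0 with median centring. The 28 cytosolic calls were also 0 with the scanner's ratio, the deposited matrix and the Cy3 arrays alone, and 6 without the dim-probe filter. The 21 respiratory chain calls were 5 with the scanner's ratio, 3 with the deposited matrix, 4 with dim probes kept and 10 with the Cy5 arrays alone.

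**Figure D5:**
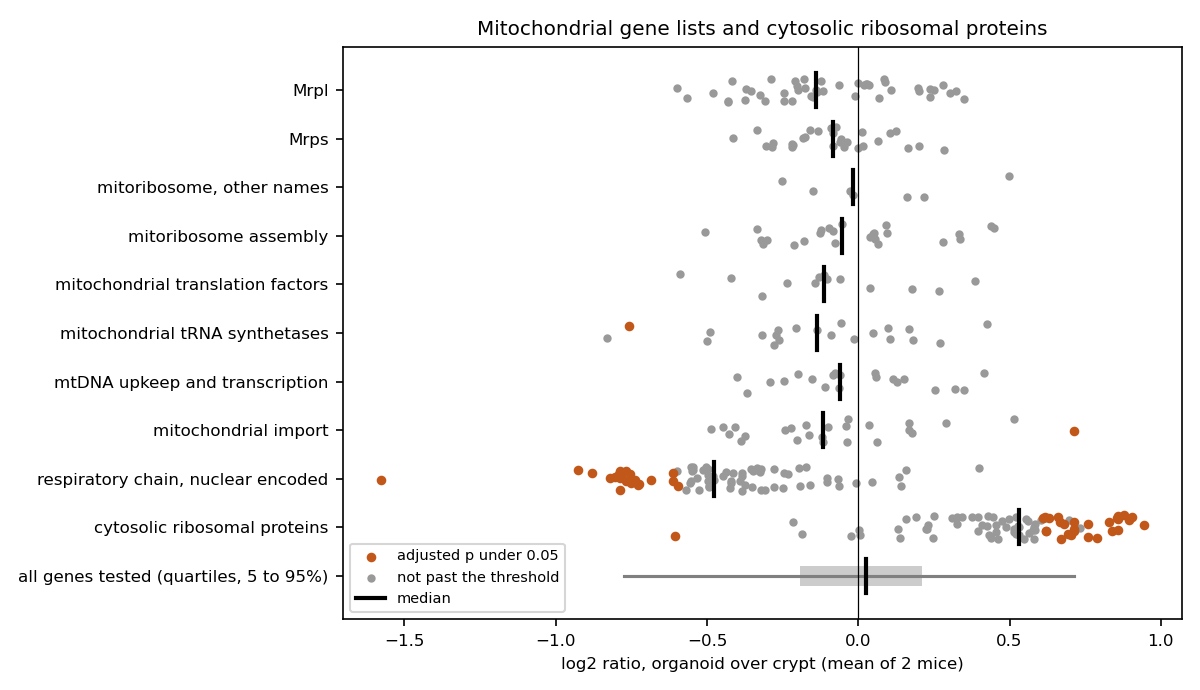
Log2 ratio of organoid over crypt (x axis, mean of 2 mice) of each gene in 10 lists (y axis, 1 point a gene name), orange where the adjusted p was under 0.05, with a black bar at the median. The bottom row gives the median of all genes tested, a box for their quartiles and a line from -0.77 to 0.71 for their 5 to 95% range; the Mrpl and Mrps medians of -0.14 and -0.08 lie between those of the respiratory chain (-0.48) and the cytosolic ribosomal proteins (0.53).

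Markers of cell types were read on the same arrays. Epithelial markers were strong in both tissues, with a summed intensity over 13 genes of 495762 and 504938 in organoids, against 753312 and 682393 in crypts. Of the 13, 2 passed with higher and 5 with lower values in organoids, beside 5.41% and 5.48% of all genes tested. The higher 2 were the stem cell gene Lgr5, at a ratio of 2.29, and Krt18, at 1.26. The lowest was the differentiation marker Krt20, at -2.75. Olfm4, also a stem cell marker, had -0.09 ± 0.21 (SD, n = 2 mice; adjusted p = 0.764, limma). White blood cell markers summed over 17 tested of 20 to 6123 and 5981 in organoids, against 11759 and 9510 in crypts, with 5 lower and 1 (Lcp1) higher. Most of these markers were dim, and 5 of the 20 were well above background in no organoid channel. The brightest were Lcp1 in organoids, at log2 intensities of 11.21 and 11.16, and Ccl5 in crypts, at 12.33 and 11.68. The sums therefore do not measure how much white blood cell RNA was present. Of 17 markers of stroma, muscle and vessels 5 were tested, with Acta2 lower, and the other 12 did not meet the filter on dim or marked spots, nor did Adgre1, Laptm5 and Tyrobp of the white blood cell list. Their part in the ratios of the mitochondrial ribosomal protein genes was not tested.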

How the data were processed

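Organoid and crypt RNA of 2 mice was compared on 4 two-colour Agilent arrays of 45018 spots, which lie on 1 slide with 1 scan, per the file headers. Intensity, as deposited, is the mean signal of a spot and the median of its local background, per dye, read with Agilent Feature Extraction 10.2.1.3 per the file headers, whereas version 9.5.3 is named in the submitters' processing notes. A log10 ratio (Cy5 over Cy3) computed by that software was deposited with them. The authors' deposited matrix holds log2 ratios, centred in a way the sources used here do not give. Both served as alternatives.

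Normexp background correction (offset 50) and loess normalization within arrays, with control spots left out, were done in limma 3.58.1 (R 4.3.3); spots marked as outliers were dropped. The dye labels gave the direction, organoid over crypt, and both arrays of a mouse, which are technical repeats of the same RNAs, were averaged. Tested probes had no outlier mark on any array and were well above background in every channel of at least 1 tissue, which left 21923 probes; the brightest represented its gene. Probes were named by accession through RefSeq's gene table where they matched (24991 of 41174). Log2 intensities were taken after Aquantile scaling. Means of the 2 mice were tested against 0 (two-sided, 1 residual and 4.16 prior degrees of freedom), with Benjamini-Hochberg adjustment over 15536 genes. The fit was tested on simulated data. The number of arrays limits the precision.

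Replicate numbers are the mice, per the labels, so organoid and crypt samples are paired within an array; the arrays of a mouse correlated over genes with r = 0.837 and 0.850, and the mice with r = 0.767. Whether the mice were handled as separate cultures beyond this is not stated. The mitochondrial ribosomal protein genes, the other lists and the tests were chosen with earlier results of these data known. Genes named were the 5 highest and 5 lowest ratios, the 5 whose mice differed most, those with probes of opposite sign, 8 chosen by role, and in other lists the calls or the ends. For the biogenesis regulators all 9 were named. Other background correction, centring, deposited ratios, filters, probe rules, dye orientations, a dye term, a replicate block and leaving out each mouse were tried.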

Additional observations from a re-analysis of the deposited data

How the results depend on the processing

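With 2 mice the residual spread of a gene has 1 degree of freedom, and no comparison of list medians can reach an exact p below 0.5. The count of the 75 genes past the threshold was 0 with 1 value per mouse, with median centring, with the scanner's ratio, with the deposited matrix, without the dim-probe filter, with all 8 channels required, with a mean over probes and with the Cy3 arrays alone. It was 1 without background subtraction (Mrpl55), 1 with the Cy5 arrays alone (Mrps5), 12 with a dye effect in a fit to 4 arrays and 6 with the replicate block. Over all genes, 1691 passed in the fit used, 223 with median centring, 677 without the dim-probe filter, 904 with the Cy3 arrays alone, 3708 with a dye effect and 3079 with the replicate block. Respiratory chain genes gave 21 calls, and 0, 5, 3, 4, 10, 51 and 40 with median centring, the scanner's ratio, the deposited matrix, no dim-probe filter, the Cy5 arrays alone, a dye effect and the replicate block. Cytosolic ribosomal protein genes gave 28 calls, 0 with median centring, the scanner's ratio, the deposited matrix or the Cy3 arrays alone, 6 without the dim-probe filter, 53 with the Cy5 arrays alone and 61 with a dye effect. The cause of these changes was not tested.

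The Mrpl median of -0.14 and the Mrps median of -0.08 were 0.17 and 0.21 with median centring, and 0.0016 and 0.046 relative to all genes, a comparison added after seeing the data. Leaving out each mouse gave -0.14 to -0.071 for Mrpl and -0.12 to -0.079 for Mrps. Their difference of -0.06 was -0.032 with the Cy3 arrays alone and -0.017 to 0.0079 without each mouse. With the replicate block the medians and their difference (-0.06) were those of the fit used, by construction.

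Among named genes the sign reversed in 20 values recomputed under another processing, all of genes past the threshold in no setting, and in 10 values that leave out a mouse. Without mouse 1 the ratio was 0.076 for Mrpl28, -0.030 for Mrpl3, 0.085 for Mrps18c and 0.017 for Mrps33. Without mouse 2 it was -0.020 for Mrpl1, -0.00054 for Mrpl15, -0.00081 for Mrpl45, 0.095 for Mrpl53, -0.079 for Mrps18a and -0.019 for Mrps9. With median centring the ratio was 0.079 for Mrpl12, 0.42 for Mrpl28, 0.18 for Mrpl53, 0.026 for Mrps18b, 0.17 for Mrps18c and 0.33 for Mrps33. With a mean over probes it was -0.20 for Mrpl15, 0.021 for Mrpl28, -0.052 for Mrpl3, 0.022 for Mrps33 and -0.083 for Mrps9. With the Cy5 arrays alone it was 0.11 for Mrpl28, -0.052 for Mrps18a, 0.0054 for Mrps18c, 0.11 for Mrps33 and -0.044 for Mrps9, and with the Cy3 arrays alone -0.072 for Mrpl1 and -0.082 for Mrpl3. Without background subtraction it was 0.029 for Mrpl28 and -0.0097 for Mrps18a. All arrays share 1 slide and 1 scan, so the slide as a block was not run.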
